A study of Mus musculus with 24 samples.

Results

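The genes described here are Plcg2 and the other phospholipase C genes Plcg1, Plcb1, Plcb2, Plcb3, Plcb4, Plcd1, Plcd3, Plcd4 and Plce1, taken by symbol from the gene table. They are 10 of the 24421 genes listed, and 10 of 10 were among the 16316 genes with enough reads to test. Cortical RNA of 24 mice, all 7.5 months old, gave 1 library each, with 6 mice per genotype. Every mouse carried 5xFAD, a set of transgenes for mutant human amyloid precursor protein and presenilin that drives amyloid plaque formation, so levels without 5xFAD were not analysed here. The groups were homozygous knockouts of Plcg2 (Plcg2KO), mice labelled heterozygous for that knockout (Plcg2HET), knockouts of the microglial receptor gene Trem2 (Trem2KO), and mice wild type at both loci (WT). Plcg2KO held 4 males and 2 females, and the other groups held 3 of each sex. Mice are named by genotype, sex letter and number (M1, F3). Which exons the knockouts lack was not stated in the sources used here.

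Phospholipases C cut the membrane lipid PIP2 into IP3, which releases calcium from internal stores, and diacylglycerol, which activates protein kinase C. The gamma enzymes are switched on by tyrosine kinases below growth factor and immune receptors, and PLCG2 is the gamma enzyme of blood cells and microglia, where it acts below TREM2 and its adaptor TYROBP. The beta enzymes answer to G protein coupled receptors, the delta enzymes to calcium, and PLCE1 to small GTPases of the RAS family. The comparison asked whether any other phospholipase C gene stood higher where Plcg2 was lost.

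The gene starts of the gamma pair and of the beta genes that ended with opposite changes are shown because these 4 genes carry the contrasts below. Each line holds the 250 bases before the RefSeq start (GRCm38.p6), read 5′ to 3′ on the gene's strand. Capitals mark GGGCGG (the GC box), GAGGAA (the core of the PU box) and CACGTG (the E box), searched on both strands, so CCGCCC is a GC box on the other strand. No overlap between motifs occurred in these windows. The windows are Plcg2 at chr8:117498025-117498274, plus strand, Plcg1 at chr2:160731060-160731309, plus strand, Plcb1 at chr2:134785914-134786163, plus strand, and Plcb2 at chr2:118728439-118728688, minus strand.
Plcg2: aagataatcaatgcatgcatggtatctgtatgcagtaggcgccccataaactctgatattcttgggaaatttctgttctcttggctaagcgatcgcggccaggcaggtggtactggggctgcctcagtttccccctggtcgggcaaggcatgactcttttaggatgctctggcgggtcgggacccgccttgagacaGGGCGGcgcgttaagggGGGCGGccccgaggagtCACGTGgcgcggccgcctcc
Plcg1: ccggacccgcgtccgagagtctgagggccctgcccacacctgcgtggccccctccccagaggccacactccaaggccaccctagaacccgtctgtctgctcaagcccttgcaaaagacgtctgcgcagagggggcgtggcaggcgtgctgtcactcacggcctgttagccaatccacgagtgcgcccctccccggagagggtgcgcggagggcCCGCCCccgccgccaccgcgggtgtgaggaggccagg
Plcb1: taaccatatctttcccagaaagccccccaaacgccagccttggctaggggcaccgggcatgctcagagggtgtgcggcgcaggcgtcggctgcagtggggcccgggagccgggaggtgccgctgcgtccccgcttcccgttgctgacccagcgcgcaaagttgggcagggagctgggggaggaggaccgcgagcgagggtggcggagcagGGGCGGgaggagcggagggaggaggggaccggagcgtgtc
Plcb2: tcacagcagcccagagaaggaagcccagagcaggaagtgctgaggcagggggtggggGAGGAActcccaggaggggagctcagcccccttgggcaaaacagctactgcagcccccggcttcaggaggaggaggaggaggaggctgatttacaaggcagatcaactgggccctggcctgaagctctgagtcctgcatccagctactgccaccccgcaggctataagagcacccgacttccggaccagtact

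Plcg2 held 2 GC boxes and the E box, Plcg1 and Plcb1 held 1 GC box each, and Plcb2 held the PU box and no GC box. Of 32851 promoters of the same length, 32.7% held a GC box, 23.3% a PU box and 6.02% an E box. The Plcb2 window had 4 CG dinucleotides, against 17 in Plcg2, 21 in Plcg1 and 22 in Plcb1. The RefSeq start of Plcg2 lay 16 bases upstream of the first counted base, and the other 3 starts coincided with it.

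Libraries held 36272966 to 82990818 counts. Levels are given as CPM, a gene's count scaled to a common library total with TMM factors, and differences as log2 fold changes with adjusted p from edgeR's quasi-likelihood test over all genes tested. A gene is called where the adjusted p is under 0.05. Across genes, expression trended with GC content in a way that followed genotype: this Spearman correlation was negative in 6 of 6 Plcg2KO libraries (-0.60 to -0.30), in 2 of 6 Plcg2HET, in 1 of 6 Trem2KO and in 4 of 6 WT libraries. The trend and the genotype cannot be told apart where they coincide, and the values it touches are given below with offsets for GC content and summed exon length, fitted to take out such trends. Nothing says whether mice of a group shared a litter or a batch.

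Plcg2 transcript was nearly gone from Plcg2KO cortex and was not called different from WT in Plcg2HET or Trem2KO cortex. Plcg2 (chromosome 8, 117498291 to 117635142, plus strand, mm10, 4298 exon bases) had a lowest, median and highest value of 0.739, 1.0 and 1.20 CPM in Plcg2KO, 5.89, 11.6 and 19.8 CPM in Plcg2HET, 9.32, 11.2 and 14.7 CPM in Trem2KO, and 7.73, 12.6 and 15.2 CPM in WT. Every Plcg2KO library was below every other library, while the other 3 genotypes overlapped. The residue in Plcg2KO came from 48 to 77 reads per library, against 383 to 1084 reads in WT.

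In Plcg2KO the log2 fold change of Plcg2 was -3.48 against WT (SE 0.20, adjusted p = 3.73e-12), -3.50 against Plcg2HET (adjusted p = 3.36e-12) and -3.44 against Trem2KO (adjusted p = 8.60e-12). Plcg2HET against WT gave 0.02 (95% interval -0.33 to 0.37, adjusted p = 0.951). With the GC and length offsets it was -0.17 (adjusted p = 0.45), and over the alternatives it ran from -0.18 to 0.29. Exon GC of Plcg2 lay at the 74.7 percentile of tested genes. Plcg2HET M3 and F2, with a negative GC trend, had 5.89 and 8.88 CPM of Plcg2, against 9.26 to 19.8 CPM in the others. Trem2KO against WT gave -0.04 (95% interval -0.39 to 0.31, adjusted p = 0.914).

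**Figure D1:**
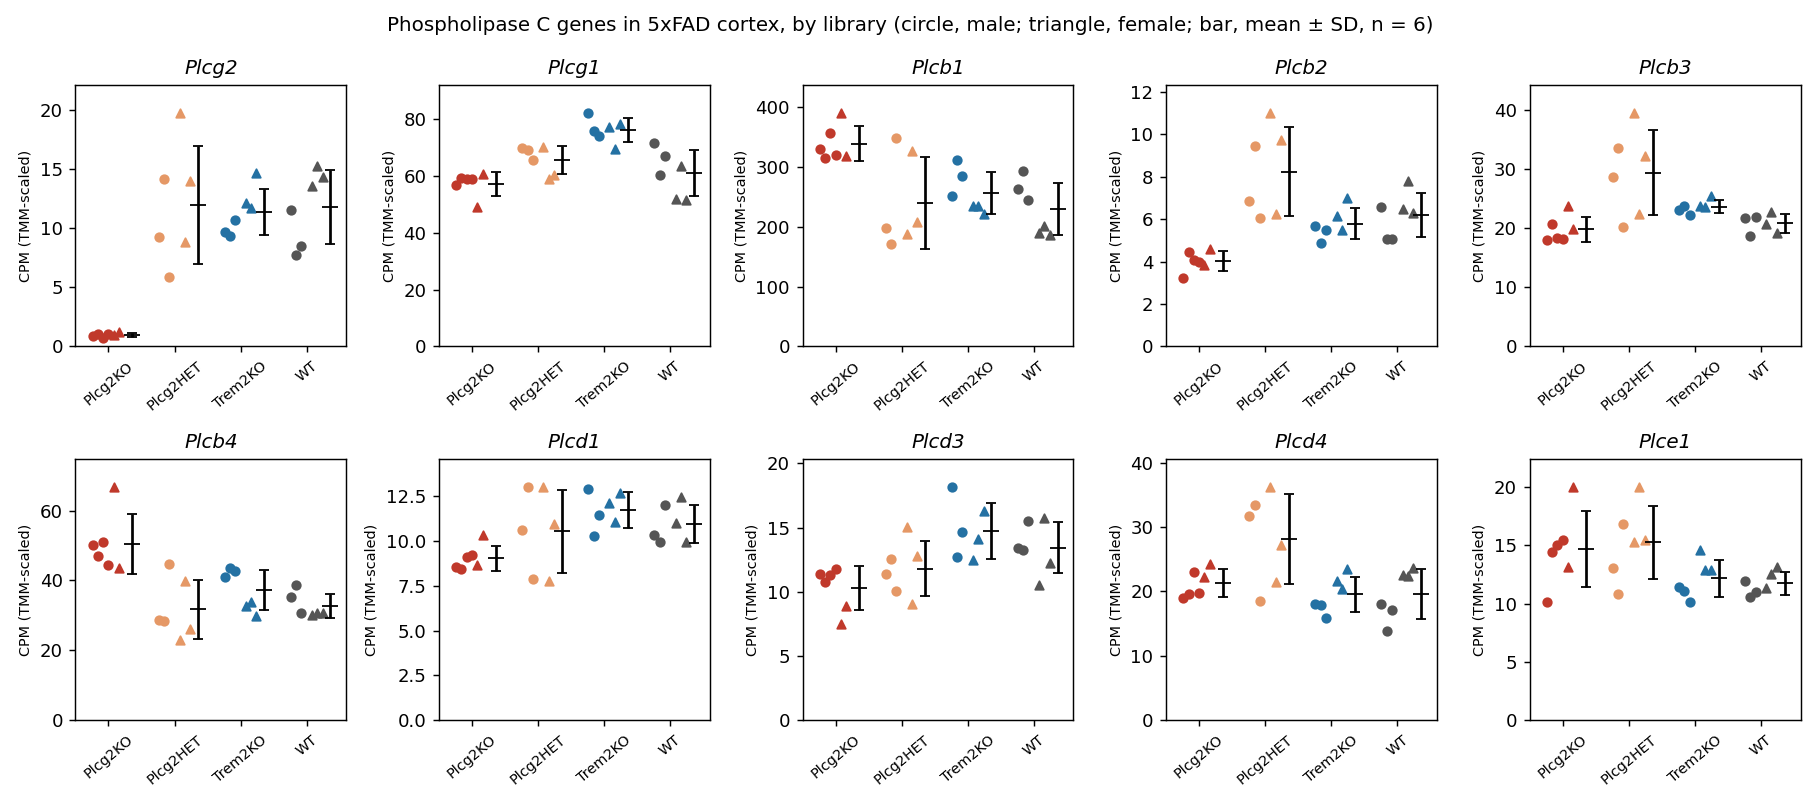
Each panel plots 1 phospholipase C gene as CPM (TMM-scaled) in 24 cortex libraries, circles for males and triangles for females, with the mean and SD of 6 libraries as a bar. Plcg2 lies at 0.739 to 1.20 CPM in Plcg2KO, and Plcb1 and Plcb4 lie above, and Plcb2 below, every WT library.

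Microglial markers also differed between genotypes. The 15 pan-microglial markers used (among them Csf1r, Cx3cr1 and C1qa) summed to 587 to 966 CPM in Plcg2KO, 1163 to 2159 CPM in Plcg2HET, 748 to 1053 CPM in Trem2KO and 1111 to 1908 CPM in WT. Of the 15, 15 were called lower in Plcg2KO than in WT and 14 in Trem2KO than in WT, beside 7.63% and 8.16% of all genes. No marker was at 0 in any group. Fewer microglia and less RNA per microglia cannot be told apart in bulk cortex.

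Set against these markers, Plcg2 was higher in Trem2KO than in WT although its CPM was not. Plcg2 minus the mean of the 15 markers, both as log2(CPM + 0.5), averaged -4.11 ± 0.18 in Plcg2KO, -2.29 ± 0.37 in Plcg2HET, -1.39 ± 0.10 in Trem2KO and -2.22 ± 0.17 in WT (SD, n = 6 each). The lowest Trem2KO library, at -1.51, was above the highest WT library, at -1.97. The difference of 0.83 between Trem2KO and WT is 1.78-fold (two-sided exact permutation p = 0.00216, the smallest that 6 against 6 can give, adjusted over 3 tests p = 0.00325). It restates the marker decline at a similar Plcg2 level, as the marker mean was 4.94 in Trem2KO and 5.80 in WT. Over 5 alternatives the difference was 0.56 to 0.83.

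The Plcg2KO difference from WT on this scale was -1.89 (exact permutation p = 0.00216, adjusted p = 0.00325, lower in 6 of 6 libraries). The pseudocount of 0.5 understates the change of low genes, and with a pseudocount of 2 the difference was -1.13 (adjusted p = 0.00325). Plcg2HET differed from WT by -0.07 (exact permutation p = 0.665, adjusted p = 0.665).

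**Figure D2:**
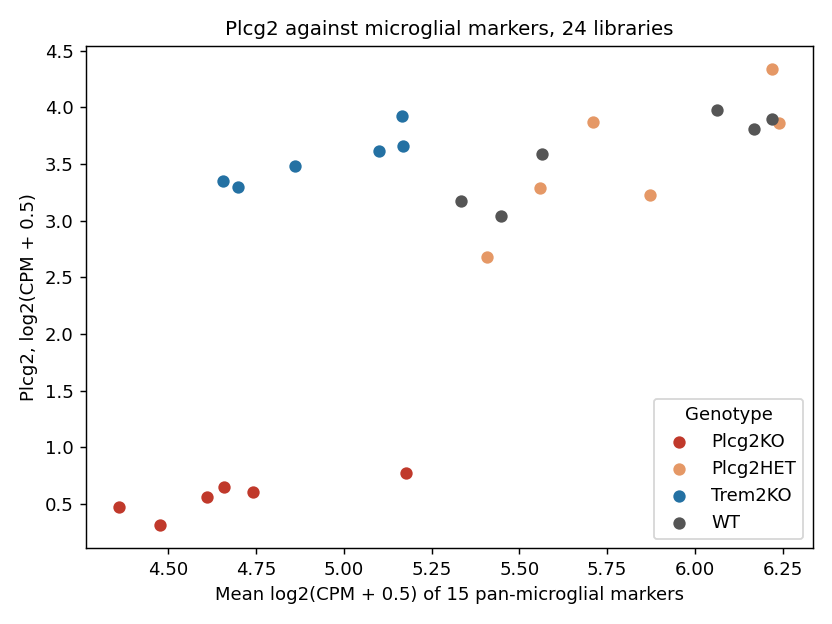
Plcg2 as log2(CPM + 0.5) is plotted against the mean log2(CPM + 0.5) of 15 pan-microglial markers, 1 point per library, coloured by genotype. Plcg2HET and WT points share a band, Trem2KO points have lower markers at a similar Plcg2 level, and Plcg2KO points have low markers and low Plcg2.

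Over the 18 libraries of the genotypes other than Plcg2KO, the genes nearest to its pattern were Serhl, Crybb1, Aldh3b1, Lgi4 and Fgfrl1, with root mean square differences of 0.157, 0.158, 0.159, 0.174 and 0.176 on the log2(CPM + 0.5) scale, each gene centred on its own mean. A flat pattern differed from Plcg2 by 0.395, and 31.4% of the 12968 genes compared were nearer than that. The nearest phospholipase C gene was Plcb2, at rank 500 with 0.280. The 15 pan-microglial markers lay between 0.378 (Csf1r) and 0.740 (Ptprc).

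Plcg1, the widely expressed gamma enzyme and the closest relative of Plcg2, was not higher in Plcg2KO. Plcg1 (chromosome 2, 160731310 to 160775760, plus strand) had 49.0, 58.9 and 60.8 CPM (lowest, median, highest) in Plcg2KO, 59.1, 67.5 and 70.2 in Plcg2HET, 69.6, 76.7 and 82.3 in Trem2KO, and 51.6, 62.0 and 71.5 in WT. Plcg2KO and WT overlapped, and every Trem2KO library was above every Plcg2KO library. The log2 fold change of Plcg2KO against WT was -0.11 (95% interval -0.27 to 0.06, adjusted p = 0.404), so that its upper limit is a 1.04-fold level. Without Plcg2KO F1, the lowest library, it was -0.08 (adjusted p = 0.63).

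Against the other genotypes Plcg1 fell in Plcg2KO, by 0.22 on the log2 scale against Plcg2HET (adjusted p = 0.0345) and by 0.43 against Trem2KO (SE 0.08, adjusted p = 0.00283). The call against Plcg2HET was lost in 7 of 10 alternatives, with adjusted p between 0.059 and 0.465 (the highest with the GC and length offsets). It was also lost without Plcg2KO M1, M3, M4 or F1, or Plcg2HET M1, M2 or F1, with adjusted p between 0.0525 and 0.0882. Plcg1 was the 1 other member called in Trem2KO against WT, at 0.33 higher (SE 0.08, adjusted p = 0.0057), beside 15.7% of all genes called there, 7.56% higher and 8.16% lower. Both calls that involve Trem2KO held in each alternative run and with each library left out. Their size varied: over the alternatives Trem2KO against WT ran from 0.18 to 0.38, and Plcg2KO against Trem2KO from -0.44 to -0.27. The value of -0.27 came with the GC and length offsets. Exon GC of Plcg1 lay at the 72.7 percentile of tested genes.

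The deposited TPM values, which allow for transcript length, put the gamma pair together at 24.1 ± 1.62 TPM in Plcg2KO, 29.8 ± 2.24 in Plcg2HET, 35.0 ± 1.28 in Trem2KO and 28.8 ± 4.24 in WT (SD, n = 6 each). Plcg2 made up 1.90% of that sum in Plcg2KO, 18.5% in Plcg2HET, 15.7% in Trem2KO and 20.5% in WT. Plcg1 was the larger part of the gamma pair in all 4 genotypes.

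On the TPM scale Plcb1 was the highest of the 10 genes in each genotype, at 102 TPM in Plcg2KO, 71.2 in Plcg2HET, 74.3 in Trem2KO and 68.4 in WT, and its range met no other gene's. In WT, Plcg1 (23.0 TPM) came next, followed by Plcb4 (15.1), Plcd4 (14.1), Plcb3 (10.1), Plcd3 (8.51) and Plcd1 (8.35). These neighbours overlapped in their ranges over 6 libraries. Plcg2 followed at 5.74 TPM, apart from Plcd1 above it and from Plce1 (2.48) below it. Its range of 4.14 to 7.1 TPM overlapped that of Plcd3, 6.1 to 10.2 TPM. Plcb2 came last at 1.98 TPM, overlapping Plce1. Plcg2 was last in Plcg2KO, at 0.458 TPM, below every Plcb2 value.

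**Figure D3:**
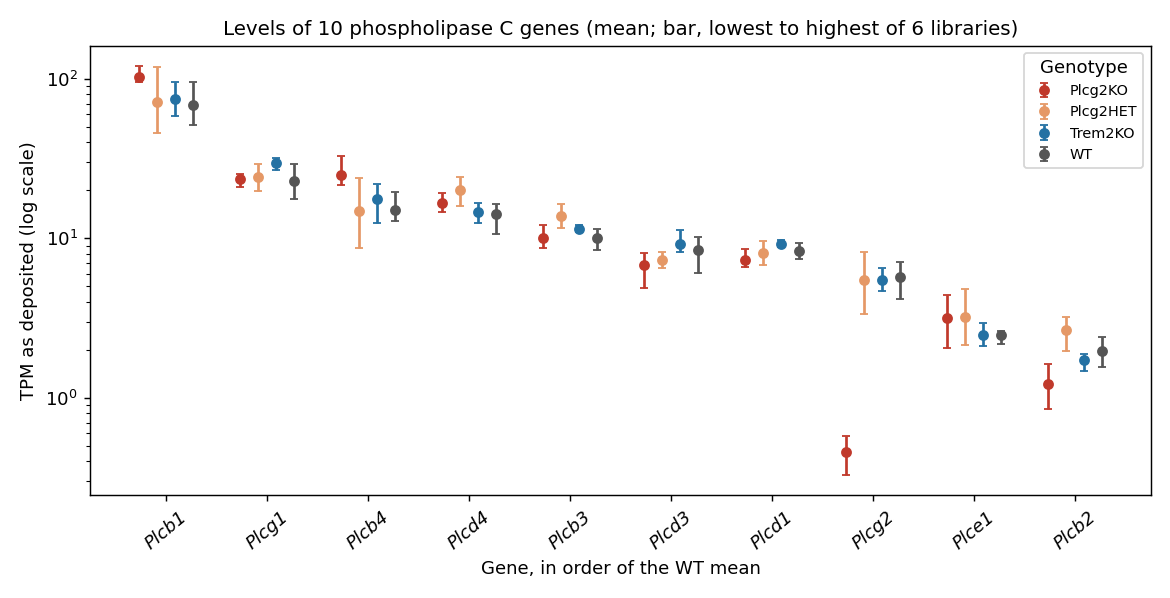
Deposited TPM on a log axis is plotted for 10 phospholipase C genes, with genotypes side by side, points for the mean and bars from the lowest to the highest of 6 libraries. Plcb1 is highest in each genotype, and Plcg2 drops to 0.458 TPM in Plcg2KO below every other gene there.

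Of the 9 members other than Plcg2, 5 were called in Plcg2KO against WT, beside 13.1% of all genes. Plcb1, Plcb4 and Plce1 rose, and Plcb2 and Plcd3 fell. Of all genes, 5.44% were called higher and 7.63% lower. The median log2 fold change of the 9 was -0.06, against -0.0035 over all genes. Of the 9, 3 (Plcb1, Plcb2 and Plcb4) had no overlap between the groups, beside 8.61% of all genes.

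Plcb1, a beta enzyme abundant in forebrain neurons, had 316, 325 and 390 CPM (lowest, median, highest) in Plcg2KO, 171, 203 and 349 in Plcg2HET, 221, 244 and 311 in Trem2KO, and 186, 223 and 294 in WT. The Plcg2KO values stood above all WT and all Trem2KO values and overlapped Plcg2HET. Plcb1 (chromosome 2, 134786164 to 135475258, plus strand) rose by a log2 fold change of 0.55 against WT (SE 0.15, adjusted p = 0.0129) and 0.47 against Plcg2HET (adjusted p = 0.0153). Against Trem2KO the log2 fold change was 0.38 (95% interval 0.08 to 0.69, adjusted p = 0.0695). Without Plcg2KO F1, which had the highest value, the call was lost against WT (0.46, adjusted p = 0.0555) and against Plcg2HET (0.38, adjusted p = 0.06). The call against Plcg2HET was lost too without Plcg2HET F3 and F1 and WT F1, in which the ribosomal precursor Rn45s took over 5% of counts (0.39, adjusted p = 0.106).

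Plcb4, a beta enzyme of thalamic and cerebellar neurons among others, lies downstream of Plcb1 on the same strand (chromosome 2, 135741830 to 136013068). It had 43.4, 48.6 and 66.8 CPM in Plcg2KO, 23.0, 28.6 and 44.6 in Plcg2HET, 29.8, 37.3 and 43.6 in Trem2KO, and 30.3, 30.8 and 38.6 in WT. The Plcg2KO values were above all 6 WT values and touched the top of the Plcg2HET and Trem2KO ranges. The log2 fold change was 0.61 against WT (SE 0.14, adjusted p = 0.00304), 0.65 against Plcg2HET (adjusted p = 0.000835) and 0.43 against Trem2KO (adjusted p = 0.0334). Without Plcg2KO F1, whose 66.8 CPM stood apart from the next value of 51.1 CPM, the change against WT was 0.46 (adjusted p = 0.0199).

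Both genes are poor in GC, with exon GC at the 22.3 percentile of tested genes for Plcb1 and the 17.5 percentile for Plcb4. In Plcg2HET, and in WT M2, high levels went with a negative GC trend of the library. Plcg2HET M3 and F2, the 2 Plcg2HET libraries with a negative trend (-0.47 and -0.39), had 349 and 327 CPM of Plcb1, against 171 to 208 CPM in the other 4 Plcg2HET libraries. For Plcb4 the same libraries had 44.6 and 39.9 CPM, against 23.0 to 28.6 CPM. WT M2, with a trend of -0.54, had the highest values of WT, 294 CPM of Plcb1 and 38.6 CPM of Plcb4, and was below every Plcg2KO library. Other libraries went otherwise. Trem2KO M1, at 0.43, had 40.9 CPM of Plcb4, above WT M2. Within Plcg2KO, F1, at -0.36, had the highest values, 390 and 66.8 CPM, and F2, at -0.60, had 319 and 43.4 CPM. With the offsets, the change against WT was 0.36 for Plcb1 (adjusted p = 0.000484) and 0.50 for Plcb4 (adjusted p = 0.000313). Against Trem2KO the offsets left 0.18 for Plcb1 (adjusted p = 0.109) and 0.23 for Plcb4 (adjusted p = 0.118), so that the Plcb4 call was lost there. That call was lost as well with the replicate block (0.45, adjusted p = 0.0648) and in 6 of 12 fits that left out a library, with adjusted p between 0.0505 and 0.135.

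**Figure D4:**
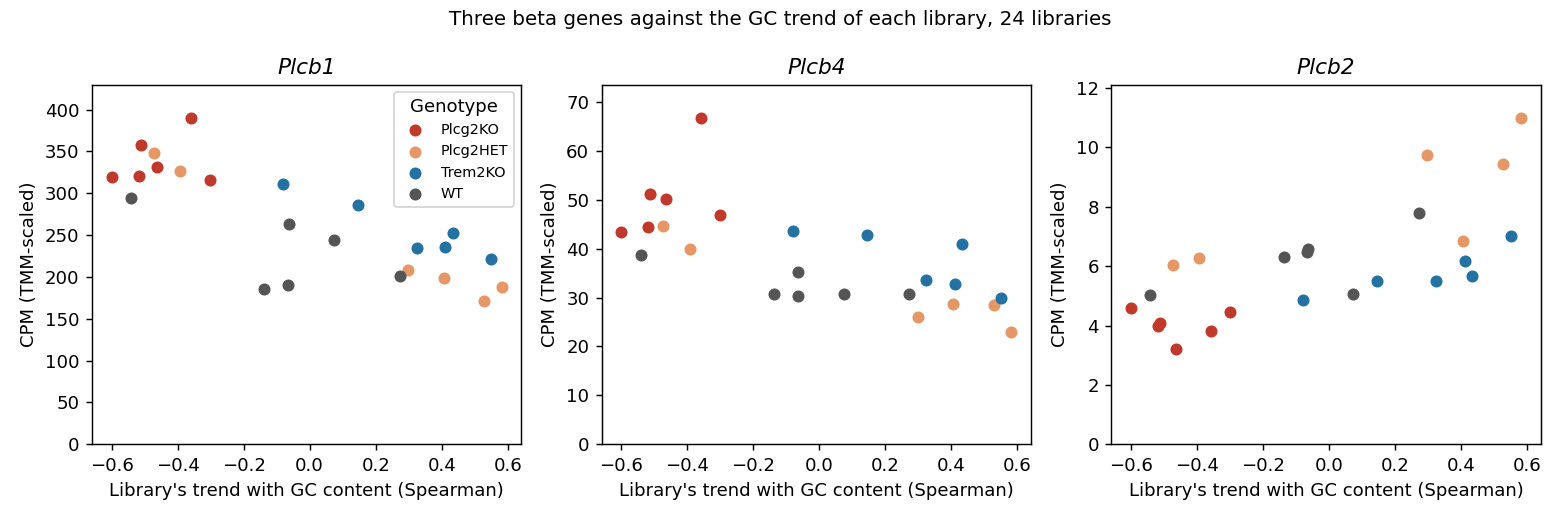
CPM of Plcb1, Plcb4 and Plcb2 is plotted against each library's Spearman correlation of expression deviations with GC content, 1 point per library, coloured by genotype. The highest Plcb1 and Plcb4 values lie at trends of -0.30 and below, where 6 Plcg2KO, 2 Plcg2HET and 1 WT library (WT M2) lie. WT M2 is below every Plcg2KO library in both genes, and below Trem2KO M2 (trend -0.08). Plcb2 is lower in the Plcg2KO libraries than in the 2 Plcg2HET libraries at such trends.

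Neuron markers summed to 12628 to 15121 CPM in Plcg2KO and 9967 to 13217 CPM in WT. Of the 10 listed, Gad2 was called higher (log2 fold change 0.74) and the other 9 were not called, with values from -0.30 (Slc17a7) to 0.39 (Snap25). Thalamic markers summed to 166 to 191 CPM in Plcg2KO and 132 to 188 CPM in WT. Of the 9 tested, Tcf7l2, Slc17a6 and Zic1 were called higher and the other 6 were not called, with values from -0.32 (Prkcd) to 0.24 (Calb2). Hippocampal markers summed to 186 to 302 CPM in Plcg2KO and 126 to 193 CPM in WT, with 2 of 8 called higher (Wipf3 and Spink8) and 1 lower (Zbtb20). Meningeal fibroblast markers summed to 173 to 227 CPM in Plcg2KO and 115 to 159 CPM in WT, without overlap and with 6 of 8 called higher. Endothelial markers summed to 89.9 to 118 CPM in Plcg2KO and 124 to 207 CPM in WT, without overlap and with 6 of 8 called lower. These counts stand beside 5.44% of all genes called higher and 7.63% lower. In Plcg2HET the hippocampal, meningeal fibroblast and endothelial sums were 207 to 278, 166 to 229 and 94.7 to 172 CPM. In Trem2KO they were 179 to 202, 185 to 219 and 118 to 169 CPM. The meningeal fibroblast sums thus lay above every WT library in these 2 genotypes too. Border-associated macrophage markers summed to 30.7 to 35.0 CPM in Plcg2KO and 18.8 to 26.9 CPM in WT, without overlap and with 4 of 8 called higher. They summed to 32.6 to 44.9 CPM in Trem2KO and 24.7 to 38.0 CPM in Plcg2HET. In each, 5 of 8 were called higher than in WT, beside 7.56% and 10.9% of all genes. In Plcg2KO and Trem2KO this direction is opposite to that of the pan-microglial markers. No marker of these lists was at 0 in every library of a group. The part of cell composition in the Plcb1 and Plcb4 values was not tested.

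Plcb2, a beta enzyme best known from blood cells, was the beta gene that fell in Plcg2KO. It had 3.23, 4.03 and 4.58 CPM in Plcg2KO, 6.05, 8.15 and 11.0 in Plcg2HET, 4.86, 5.59 and 7.00 in Trem2KO, and 5.05, 6.39 and 7.78 in WT. Plcg2KO lay below every library of the other 3 genotypes. Plcb2 (chromosome 2, 118707517 to 118728438, minus strand) fell by 0.58 against WT on the log2 scale (SE 0.14, adjusted p = 0.00447), by 0.98 against Plcg2HET (adjusted p = 8.22e-06) and by 0.48 against Trem2KO (adjusted p = 0.0214).

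The call of Plcb2 against WT held in each alternative and with each library left out, and was -0.61 with the offsets (adjusted p = 0.000777). The call against Trem2KO was lost with the offsets (-0.34, adjusted p = 0.0832), with the replicate block (adjusted p = 0.0603) and without Trem2KO M1, Trem2KO F3 or Plcg2KO F1 (adjusted p = 0.06, 0.0547 and 0.0614). The pan-microglial markers fell with Plcb2 in Plcg2KO, with a median log2 change of -1.11 over the 15. In Trem2KO the markers had a median of -0.94 against WT, while Plcb2 was at -0.10 (adjusted p = 0.653). The part of the microglial markers in the Plcb2 value was not tested.

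Plcb3, a widely expressed beta enzyme, was not called in Plcg2KO against WT. It had 17.97, 19.1 and 23.7 CPM in Plcg2KO, 20.1, 30.5 and 39.5 in Plcg2HET, 22.2, 23.7 and 25.5 in Trem2KO, and 18.8, 21.2 and 22.7 in WT. Plcg2HET spread most widely and reached above the other groups, except in M3 and F2, its libraries with a negative GC trend (20.1 and 22.5 CPM). The log2 fold change of Plcb3 in Plcg2KO was -0.06 against WT (95% interval -0.29 to 0.18, adjusted p = 0.794), -0.55 against Plcg2HET (adjusted p = 0.000892) and -0.24 against Trem2KO (adjusted p = 0.14).

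The 4 beta genes together reached 138 ± 14.3 TPM in Plcg2KO, 103 ± 37.0 in Plcg2HET, 105 ± 16.4 in Trem2KO and 95.6 ± 20.8 in WT (SD, n = 6 each). The lowest Plcg2KO sum, 129.6 TPM, was above the highest WT sum, 126.6 TPM. Plcb1 carried most of it.

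The delta genes gave 1 call in Plcg2KO against WT. Plcd3 had 7.51, 11.1 and 11.8 CPM in Plcg2KO, 9.05, 12.0 and 15.03 in Plcg2HET, 12.5, 14.3 and 18.2 in Trem2KO, and 10.5, 13.3 and 15.7 in WT. Plcg2KO overlapped WT and lay below every Trem2KO library. Plcd3 (chromosome 11, 103070296 to 103101658, minus strand) fell by 0.41 against WT (SE 0.13, adjusted p = 0.0354) and by 0.54 against Trem2KO (adjusted p = 0.0115). The first call was lost in 6 of 12 fits that left out a library, with adjusted p between 0.0503 and 0.121, with the replicate block (adjusted p = 0.071) and with expected counts (adjusted p = 0.0516). The second was lost with the offsets (-0.22, adjusted p = 0.127).

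Plcd1 (chromosome 9, 119071528 to 119093502, minus strand) had 8.47, 8.89 and 10.3 CPM in Plcg2KO, 7.77, 10.8 and 13.0 in Plcg2HET, 10.3, 11.8 and 12.9 in Trem2KO, and 9.94, 10.7 and 12.4 in WT. Its log2 fold change was -0.27 against WT (95% interval -0.51 to -0.02, adjusted p = 0.14) and -0.37 against Trem2KO (adjusted p = 0.0347), and it was called lower against Trem2KO alone. That call was lost with the offsets (-0.11, adjusted p = 0.38) and with the replicate block (adjusted p = 0.0841). It was lost in 7 of 12 fits that left out a library, with adjusted p between 0.0559 and 0.098.

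Plcd4 (chromosome 1, 74542889 to 74565977, plus strand) shares 393 exon bases with Zfp142, so reads there are uncertain. It had 19.0, 21.0 and 24.2 CPM in Plcg2KO, 18.6, 29.5 and 36.3 in Plcg2HET, 15.9, 19.2 and 23.4 in Trem2KO, and 13.9, 20.2 and 23.6 in WT. The log2 fold change in Plcg2KO was 0.18 against WT (95% interval -0.09 to 0.45, adjusted p = 0.397) and -0.36 against Plcg2HET (adjusted p = 0.0328). The call against Plcg2HET was lost in 8 of 12 fits that left out a library, with adjusted p between 0.0522 and 0.13. It was lost as well with only the 2 groups (adjusted p = 0.0896), with the replicate block (adjusted p = 0.0959) and without the 3 libraries rich in Rn45s (adjusted p = 0.116). The 3 delta genes summed to 30.8 ± 2.07 TPM in Plcg2KO and 31.0 ± 2.54 TPM in WT (SD, n = 6 each).

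Plce1, the epsilon enzyme that also carries a guanine nucleotide exchange domain, had 10.1, 14.7 and 20.0 CPM in Plcg2KO, 10.9, 15.4 and 20.0 in Plcg2HET, 10.2, 12.2 and 14.6 in Trem2KO, and 10.5, 11.6 and 13.2 in WT. Plcg2KO and WT overlapped, and 1 Plcg2KO library was below every WT library. Plce1 (chromosome 19, 38524197 to 38785100, plus strand) rose by 0.36 against WT (SE 0.12, adjusted p = 0.0444). This call was lost in 9 of 12 fits that left out a library, with adjusted p between 0.066 and 0.145, and in 6 of 9 alternatives, the offsets among them (0.20, adjusted p = 0.199).

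**Figure D5:**
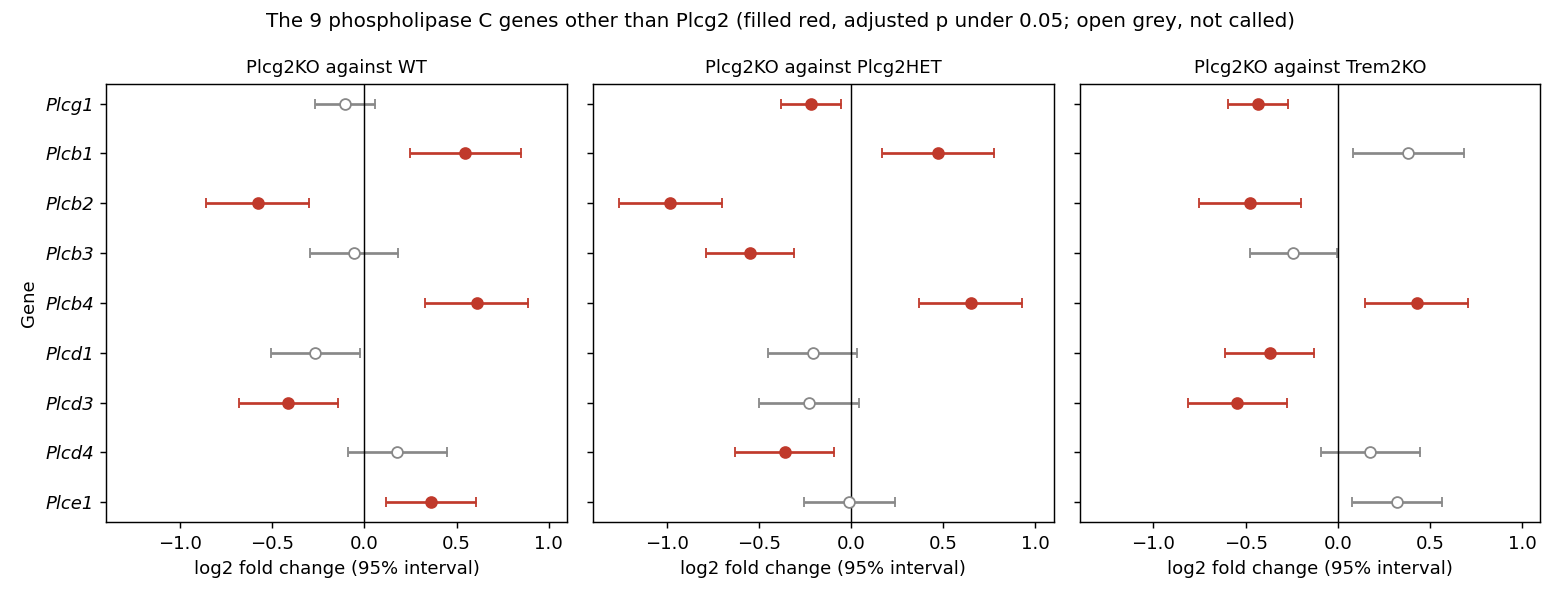
Log2 fold changes with 95% intervals are plotted for the 9 members other than Plcg2 in Plcg2KO against WT, Plcg2HET and Trem2KO, filled red where called and open grey where not. Plcb4 is called higher and Plcb2 lower in each of the 3 panels, while Plcg1 is called lower against Plcg2HET and Trem2KO.

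Against Plcg2HET, 6 of the 9 other members were called in Plcg2KO, beside 35.2% of all genes. Plcb1 and Plcb4 were higher (15% of all genes), and Plcg1, Plcb2, Plcb3 and Plcd4 were lower (20.2%). Against Trem2KO, 5 of 9 were called, beside 16.5% of all genes: Plcb4 was higher (7.63%), and Plcg1, Plcb2, Plcd1 and Plcd3 were lower (8.82%). With the offsets, 1 of the 5, Plcg1, was called against Trem2KO (-0.27, adjusted p = 0.00686). These comparisons and that with WT share the Plcg2KO libraries.

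Plcg2HET itself differed from WT in 4 of the 9, beside 18% of all genes, although Plcg2 was not called there. Plcb3 (log2 fold change 0.49, adjusted p = 0.00464), Plcd4 (0.54, adjusted p = 0.00564), Plcb2 (0.40, adjusted p = 0.0363) and Plce1 (0.37, adjusted p = 0.0319) were higher, and 0 of the 9 lower, with 10.9% of all genes called higher and 7.13% lower. The spread within Plcg2HET was wide, as the Plcb3 range of 20.1 to 39.5 CPM shows. Plcg2HET M3 and F2, with a negative GC trend, had 20.1 and 22.5 CPM of Plcb3, against 28.7 to 39.5 CPM in the others. For Plcd4 they had 18.6 and 21.5 CPM, against 27.2 to 36.3 CPM. For Plcb2 they had 6.05 and 6.27 CPM, against 6.85 to 11.0 CPM. Plce1 went the other way, at 16.8 and 20.0 CPM, against 10.9 to 15.4 CPM. The trend's part in these calls was not tested beyond the offsets below. When the 3 libraries rich in Rn45s were left out, only Plcd4 was called (0.53, adjusted p = 0.0451). Leaving out single libraries ended the Plcb2 call in 7 and the Plce1 call in 6 of 12 fits, and neither of the other 2 calls. With Plcg2HET and WT fitted alone, 0 of 9 were called in edgeR, with adjusted p from 0.0628 upward and 4 at an unadjusted p under 0.05, while DESeq2 over all 24 libraries called the same 4 genes. With the offsets, 5 of the 9 were called, beside 3680 of 16316 genes. Plcb3, Plcd4 and Plce1 were higher and Plcd1 and Plcd3 lower, and the Plcb2 call was lost. Without Plcg2HET M3 and F2, Plcb2, Plcb3 and Plcd4 were called higher and Plcb4 lower, beside 7279 of 16484 genes.

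Of 8 further genes of the family, Plcl1 rose and Plcxd1 fell in Plcg2KO against WT, beside 5.44% of all genes called higher and 7.63% lower. Plcl1, a catalytically inactive relative, had 41.5, 43.0 and 50.6 CPM in Plcg2KO and 30.0, 31.1 and 39.5 in WT (log2 fold change 0.42, SE 0.11, adjusted p = 0.0142). These 2 ranges did not overlap, as in 8.61% of all genes. Plcxd1, which has only the X domain of the catalytic core, averaged 11.7 ± 1.38 CPM in Plcg2KO and 14.5 ± 1.82 CPM in WT (SD, n = 6 each, log2 fold change -0.33, adjusted p = 0.0189). Plch1, Plch2, Plcz1, Plcl2, Plcxd2 and Plcxd3 were not called, with log2 fold changes of 0.26, -0.12, -0.06, -0.20, 0.35 and 0.47.

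Upstream of PLC gamma, 10 of 20 listed genes fell and 1, the ubiquitin ligase gene Cbl, rose in Plcg2KO against WT, beside 7.63% of all genes called lower and 5.44% higher. The receptor gene Trem2 averaged 19.1 ± 5.39 CPM in Plcg2KO and 82.5 ± 34.9 CPM in WT (SD, n = 6 each, log2 fold change -1.89, adjusted p = 1.39e-08). Its adaptor gene Tyrobp fell by 1.49 (adjusted p = 1.94e-07) and the linker gene Lat2 by 1.66 (adjusted p = 1.98e-06). The list had a median log2 fold change of -0.42 in Plcg2KO and -0.38 in Trem2KO against WT. In Trem2KO 10 fell and Cbl rose as well, beside 8.16% of all genes called lower and 7.56% higher. The 10 include Trem2 (-3.70), the gene knocked out there, whose fall is set by the genotype and which also enters that median. Many of these genes are microglial in cortex, and the part of the marker decline in their values was not tested.

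Upstream of PLC beta, 4 of 22 tested G protein and receptor genes fell and 2 rose, beside the same 7.63% and 5.44% of all genes. Gna15, the G protein alpha subunit of blood cells, fell by 0.81 (adjusted p = 0.00164), the nucleotide receptor genes P2ry6 and P2ry2 by 0.79 and 1.32 (adjusted p = 0.00183 and 0.00456), and the muscarinic receptor gene Chrm3 by 0.29. The serotonin receptor gene Htr2a rose by 0.60 and the adrenergic receptor gene Adra1a by 0.48. The list's median was 0.05.

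Among 26 genes of PIP2 supply and turnover, the kinase genes Pip5k1b (0.40, adjusted p = 0.0162) and Pi4ka (0.28) and the phosphatase gene Synj1 (0.37, adjusted p = 0.0336) rose. Inpp5d, which encodes the phosphatase SHIP1 of blood cells and microglia, fell by 0.49 (adjusted p = 0.0202). These are 3 of 26 higher and 1 of 26 lower, beside 5.44% and 7.63% of all genes, and the list's median was 0.02.

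Downstream, 0 of 24 genes of IP3 and calcium signalling were called in Plcg2KO against WT by edgeR, with 1 (Itpka) at an unadjusted p under 0.05 and 0 called by DESeq2. The nearest were Itpka (-0.28, adjusted p = 0.0808), Stim2 (0.24, adjusted p = 0.191) and Itpkb (-0.23, adjusted p = 0.233). Of 26 genes of diacylglycerol and protein kinase C signalling, 4 fell and 4 rose, beside 7.63% and 5.44% of all genes. Rasgrp3, a diacylglycerol-activated exchange factor, averaged 11.2 ± 1.42 CPM in Plcg2KO and 23.0 ± 3.54 CPM in WT (SD, n = 6 each, log2 fold change -0.999, SE 0.10, adjusted p = 1.56e-07), and Mgll (-0.52, adjusted p = 0.00472), Dgka and Dgkq fell as well. Dgki (0.54, adjusted p = 0.000101), Dgkb, Dgkh and Prkd1 rose, with Dgki, Dgkb and Dgkh encoding diacylglycerol kinases and Prkd1 a protein kinase.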

How the data were processed

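The authors deposited whole-number read counts per gene, made with STAR 2.7.10a and featureCounts 2.0.3 on mm10 per the submitters' processing notes, with coordinates and a summed exon length per the file headers. Per its header, a second deposited table held expected counts and TPM per library. Neither the tool behind that table nor the strand setting of the counting was stated in the sources used here. TPM served for levels between genes and for sums and shares over genes. These were set side by side between genotypes without a test, TMM scaling or offsets. Expected counts were rounded to whole numbers for 1 alternative fit.

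From the deposited counts, filterByExpr (minimum count 10, by genotype) kept 16316 genes. After TMM scaling, a robust quasi-likelihood model with a mean per genotype and a sex term was fitted over 24 libraries (R 4.3.3, edgeR 4.0.16), so the genotypes share 1 estimate of the spread. Benjamini-Hochberg adjustment ran over all tested genes. The fit was tested on simulated data. Total counts ran from 36272966 to 82990818, and no 2 libraries were identical. Replicates are mice by their labels, and p-values measure the spread between these libraries.

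The genes and lists were chosen with earlier results of these data known, and so were the named genes: all 10 members, Trem2, the other family genes, and the 3 genes of smallest p in each pathway list, plus those needed to name small counts. Of the list genes, Rgs18 had too few reads and Grk2 was not found under that symbol. Likeness to Plcg2 was taken over genes whose average log2 CPM was 1 or more. GC content was available for 96.2% of tested genes. Promoter sequences are from RefSeq, with 10 of 10 members matched, and promoters of Plcb4 were not used because neither RefSeq start matched the counted one. Alternatives were RLE size factors, no count filter, no sex term, a replicate block, only the 2 groups compared, DESeq2 1.42.0, expected counts, GC and length offsets (splines with 5 degrees of freedom), a pseudocount of 2, fewer markers, leaving out libraries rich in Rn45s, and leaving out each library. Leaving out Plcg2HET M3 and F2 together was added after the data were seen.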

Additional observations from a re-analysis of the deposited data

Results flagged for a closer look

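In each of 40 groups of 6 libraries (10 genes by 4 genotypes), the highest and lowest values were set against the rest by Dixon's criterion, which chance meets in about 1 group in 20. It marked 2 values, both in the female Plcg2KO F1. Plcg1 stood at 49.0 CPM in that library, the lowest of Plcg2KO, with the next at 56.9 CPM. Plcb4 stood at 66.8 CPM, the highest of Plcg2KO, with the next at 51.1 CPM. The same library also had the highest Plcb1 and Plcb3 and the lowest Plcd3 of Plcg2KO, at 390, 23.7 and 7.51 CPM. Genotype effects on the 10 genes were compared between females and males in 50 contrasts, of which 0 were called in edgeR after adjustment over all genes and 2 had an unadjusted p under 0.05. These were Plcd3 in Plcg2KO against Plcg2HET (females minus males -0.58, unadjusted p = 0.0355) and Plcb4 in Plcg2KO against Trem2KO (0.59, unadjusted p = 0.0361), each with an adjusted p of 1 by edgeR's quasi-likelihood test.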

How the results depend on the processing

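The losses of Plcg2 in Plcg2KO and the marker-relative differences of Plcg2KO and Trem2KO from WT kept direction and call under every alternative run and with every library left out. Of 963 recomputed values of the other 9 genes, 813 kept direction and side of the threshold, 100 lost the call, 17 gained one and 33 changed sign; the cause was not tested. Of 1335 recomputed values and counts, 44 changed sign, and none of those was called in either fit.

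Counts of other members called moved by over 1.5 times as follows. Plcg2KO against WT gave 3 with the replicate block and with expected counts. Plcg2KO against Plcg2HET gave 3 without the libraries rich in Rn45s. Plcg2KO against Trem2KO gave 2 with the block, 8 with only the 2 groups and 1 with the GC and length offsets. Plcg2HET against WT gave 2 without the sex term, 0 with only the 2 groups and 1 without the libraries rich in Rn45s. Trem2KO against WT gave 2 with only the 2 groups and with the offsets. Leaving out each library gave 3 to 5 for Plcg2KO against WT (3 without WT M3 or F2, or Plcg2KO M2, F1 or F2), 3 to 7 against Plcg2HET (3 without Plcg2KO F1), 2 to 5 against Trem2KO (2 without Trem2KO M1 or F3, and 3 without Trem2KO F1 or Plcg2KO F1), and 2 to 4 for Plcg2HET against WT (2 without WT M2, F1 or F3).

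All genes called, with only the 2 groups, numbered 3557 for Plcg2KO against WT, 3512 against Plcg2HET, 6712 against Trem2KO, 736 for Plcg2HET against WT and 4780 for Trem2KO against WT. For Plcg2KO against Trem2KO they numbered 1073 with the block, 1161 with the offsets and 769 to 2796 leaving out each library. Without the libraries rich in Rn45s they numbered 3113 for Plcg2KO against Plcg2HET and 807 for Plcg2HET against WT. Without Plcg2HET M3 and F2 they numbered 9552 and 7279 in those comparisons, with 8 and 4 other members called. Leaving out each library gave 1957 to 4369 for Plcg2HET against WT and 1662 to 2597 for Trem2KO against WT.

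Sign changes of uncalled log2 fold changes were these. Plcg2 in Plcg2HET against WT was -0.014 with the block, -0.016 with expected counts, -0.17 with the offsets and -0.18 without the libraries rich in Rn45s. With the offsets, Plcb3 was 0.0032 in Plcg2KO against WT, Plcd1 0.13 and Plcd3 0.14 in Plcg2KO against Plcg2HET, Plcg1 -0.040 and Plcb4 0.016 in Plcg2HET against WT, and Plcd1, Plcd3, Plcd4 and Plce1 -0.014, -0.052, -0.0076 and -0.017 in Trem2KO against WT. In Trem2KO against WT, Plcd4 was -0.0043 without the sex term and -0.00067 with the block, and Plce1 -0.0050 with expected counts. Plce1 in Plcg2KO against Plcg2HET was 0.00028 with only the 2 groups and 0.15 without Plcg2HET M3 and F2. In Plcg2HET against WT, Plcb4 was 0.091 without the libraries rich in Rn45s, and Plcb1 -0.24 and Plcd1 0.13 without M3 and F2. Leaving out each library, ranges that crossed 0 were -0.13 to 0.14 for Plcg2, -0.060 to 0.17 for Plcb1, -0.15 to 0.020 for Plcb4, -0.15 to 0.025 for Plcd1 and -0.16 to 0.015 for Plcg2 relative to the markers in Plcg2HET against WT, -0.10 to 0.033 for Plcg2 and -0.063 to 0.039 for Plcd4 in Trem2KO against WT, and -0.083 to 0.066 for Plce1 in Plcg2KO against Plcg2HET.

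Whether replicate codes pair the libraries was not settled. Same-numbered libraries correlated at -0.38 to 0.56 over 27 pairs, 17 of them over 0.1. Differently numbered libraries were not compared, and same-numbered libraries share a sex. Depth of 48 to 77 reads limits the Plcg2KO level of Plcg2.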
